A study of Homo sapiens with 2 samples.

Results

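The 4 INK4 genes *CDKN2A*, *CDKN2B*, *CDKN2C*, and *CDKN2D*, the antisense transcript *CDKN2B-AS1*, the neighboring enzyme gene *MTAP*, and *CDKN1B*, which encodes p27, were examined in mock- and DAC-treated HCT116 cells. They were chosen by name as the inhibitors of the INK4 family at 9p21 and elsewhere, the genes next to them at 9p21, and p27. These were 7 of the 33538 genes counted. *CDKN2A* (ENSG00000147889) lies at chr9:21967752-21995301 and *CDKN2B* (ENSG00000147883) at chr9:22002903-22009305, both on the minus strand of hg38. *MTAP* (ENSG00000099810, chr9:21802636-21937651) and the long noncoding RNA gene *CDKN2B-AS1* (ENSG00000240498, chr9:21994139-22128103) lie beside them on the plus strand, and the latter overlaps both inhibitor genes in the opposite direction. *CDKN2C* (ENSG00000123080, chr1:50960745-50974634, plus strand), *CDKN2D* (ENSG00000129355, chr19:10566460-10569059, minus strand), and *CDKN1B* (ENSG00000111276, chr12:12685498-12722369, plus strand) lie on other chromosomes.

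HCT116 is an established line of human colon cancer cells. Decitabine (DAC) is a nucleoside analog that traps DNA methyltransferases, so that dividing cells lose DNA methylation. In 1 arm the drug was given at 0.5 μM on day 1 and again on day 3 after seeding on day 0, and the other arm was mock-treated. The drug was withdrawn by a change of medium on day 5, and libraries were made from cells of day 7. Each arm gave 1 droplet library, in which molecules were counted by unique molecular identifiers (UMIs) at the 3′ end, so no test between the arms was possible, and all intervals below are exact 95% intervals for counting error only.

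INK4 proteins bind CDK4 and CDK6 and keep them from pairing with D-type cyclins, which holds RB in the form that restrains E2F and entry into S phase. *CDKN2A* also encodes ARF from another first exon, a protein that binds MDM2, whereas p27 binds cyclin E-CDK2 and related complexes and is controlled largely by protein degradation. The 9p21 locus is silenced or deleted in many cancers, and HCT116 is known to carry a frameshift in the p16INK4a reading frame of *CDKN2A*.

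The mock-treated library held 1783 cells and 49911689 UMIs, and the DAC-treated library held 1751 cells and 59046165 UMIs. A median cell had 27899 UMIs after mock treatment and 35340 after DAC, and 12 barcodes occurred in both libraries. Of 10 colon epithelial markers, 7 reached 100 UMIs over both libraries, led by *KRT18*. Scaled to the library total (CPM), *KRT18* stood at 2030 in mock- and 4280 in DAC-treated cells. *CEACAM5* was near 0, with 1 UMI and 0 UMIs, and *CDX1* had 0 UMIs before and 58 UMIs after DAC. Of 9 markers of immune, stromal, endothelial, blood, and liver cells, only *COL1A1* reached 100 UMIs, with 533 and 1112 UMIs, and the list summed to 10.9 and 21.9 CPM. *PTPRC*, the pan-leukocyte marker, had 0 UMIs in mock- and 16 UMIs in DAC-treated cells. *CD3E* had 0 and 24 UMIs, *PECAM1* 0 and 46 UMIs, and *VWF* 6 and 62 UMIs. The epithelial markers *EPCAM*, at 349 and 222 CPM, and *KRT18* were thus abundant in both libraries, while *EPCAM* was lower after DAC and markers of other cells were low but higher after DAC, and their part in the results was not tested.

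Among 13547 genes with at least 100 UMIs over both libraries, 4205 (31.0%) were at least 1.5-fold higher after DAC and 1923 (14.2%) at least 1.5-fold lower. All 7 genes examined here reached that limit, and 3 of them were higher and 1 lower by 1.5-fold, counts that became 2 higher and 3 lower (*CDKN2A*, *CDKN2B*, and *MTAP*) with median-of-ratios scaling, under which 2947 of all genes were higher and 2862 lower. At 2-fold, 2 of the 7 were higher, against 16.3% of all genes, and 0 were lower, against 6.80%. The higher genes were *CDKN2C*, *CDKN2D*, and *CDKN2B-AS1*, and the lower gene was *MTAP*. The median log2 ratio of all genes was 0.24, and median-of-ratios scaling shifted every log2 ratio by −0.22. Relative to the all-gene median, the log2 changes were +2.39 for *CDKN2C*, +2.08 for *CDKN2D*, and +0.36 for *CDKN2B-AS1*. On the same scale they were −0.56 for *CDKN1B*, −0.72 for *CDKN2B*, −0.74 for *CDKN2A*, and −1.001 for *MTAP*. The INK4 genes therefore split by location, with both genes outside 9p21 far above the median gene and both 9p21 genes below it, although the sign for *CDKN2B* turned when cells were weighted equally.

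**Figure D1:**
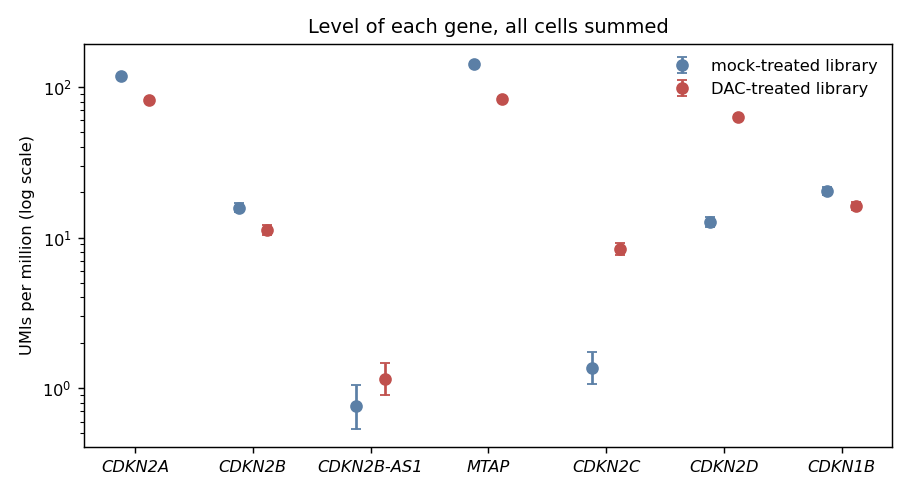
CPM (UMIs scaled to the library total, log scale) of the 7 genes in the mock-treated (blue) and DAC-treated (red) library, with all cells summed and bars for exact 95% Poisson intervals. *CDKN2D* stood at 12.8 CPM in mock- and 63.4 CPM in DAC-treated cells, whereas *MTAP* stood at 142 and 83.8 CPM.

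**Figure D2:**
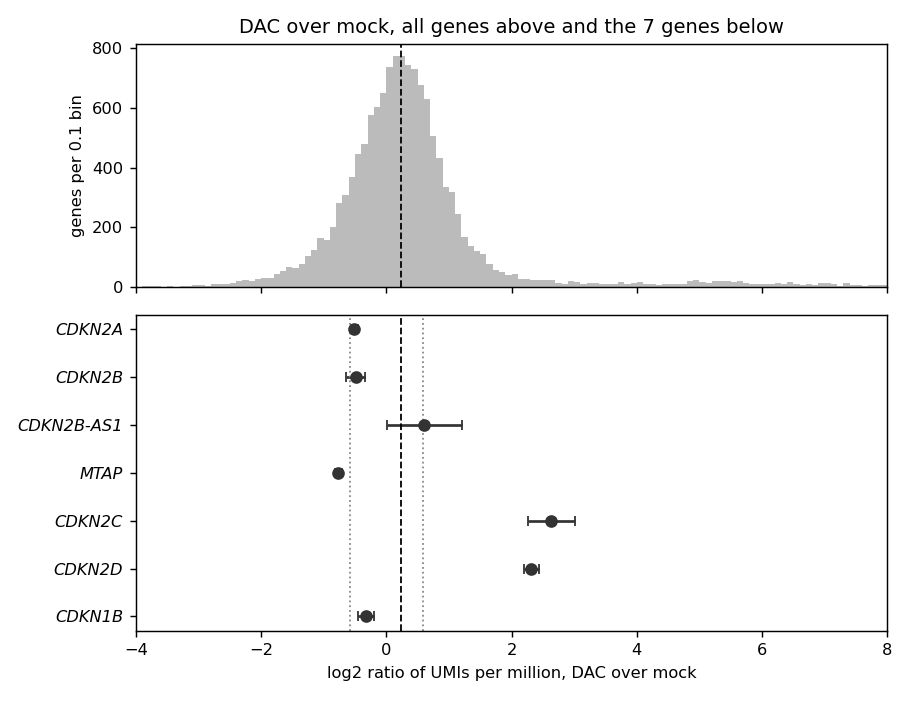
Log2 ratio of DAC over mock for all 13547 genes (histogram, upper panel) and for the 7 genes with exact 95% intervals (lower panel). The dashed line marks the all-gene median of 0.24 and the dotted lines mark 1.5-fold in each direction; *CDKN2C* and *CDKN2D* lie to the right of every line, and *MTAP* to the left.

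Of the INK4 genes outside 9p21, *CDKN2D* encodes p19INK4d, an inhibitor whose mRNA and protein are known to rise through S phase. It had 637 UMIs in mock-treated cells (12.8 CPM, interval 11.8 to 13.8) and 3746 UMIs in DAC-treated cells (63.4 CPM, 61.4 to 65.5). The ratio was 4.97 (4.57 to 5.42), above the ratios of 94.2% of the tested genes. Transcripts were present in 20.1% of mock-treated cells and in 55.2% of DAC-treated cells. Cells with at least 3 UMIs, the limit for upregulation used here, rose from 69 to 498, and the highest cell had 9 UMIs before and 36 UMIs after DAC. Both the share of cells with a UMI and the highest count were thus greater after DAC. Both depend on the mean level, so these values cannot separate more cells with the transcript from more transcript per cell.

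*CDKN2C*, which encodes p18INK4c and is also transcribed more in cycling cells, was close to silent in mock-treated cells. It had 68 UMIs (1.36 CPM, 1.06 to 1.73), with no more than 2 UMIs in any of the 1783 cells. After DAC it had 498 UMIs (8.43 CPM, 7.71 to 9.21), a ratio of 6.19 (4.797 to 8.10). The share of cells with a UMI was 3.42% (2.63 to 4.37%) in mock-treated and 17.9% (16.1 to 19.8%) in DAC-treated cells. At least 3 UMIs were found in 0 mock-treated cells, with an interval up to 0.207%, and in 50 DAC-treated cells (2.86%, 2.13 to 3.75%). Its interval overlapped that of *CDKN2D*, so the order of both ratios is not fixed, and its level remained well below that of *CDKN2D*.

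Start regions of *CDKN2D* and *CDKN2C* are shown because these genes moved together, and CpG dinucleotides, the sites of DNA methylation, are in capitals. They come from the RefSeq promoter table on GRCh38.p14, in which 10 windows of 300 bases, from 250 before to 50 after a start, matched the 7 genes, and only bases before the annotated exons of protein-coding genes are printed. The *CDKN2D* stretch is chr19:10569060-10569229 on the minus strand and holds 21 CpG sites in 170 bases. The *CDKN2C* stretch is chr1:50970045-50970244 on the plus strand, before the start furthest downstream, and holds 7 CpG sites in 200 bases.
CDKN2D: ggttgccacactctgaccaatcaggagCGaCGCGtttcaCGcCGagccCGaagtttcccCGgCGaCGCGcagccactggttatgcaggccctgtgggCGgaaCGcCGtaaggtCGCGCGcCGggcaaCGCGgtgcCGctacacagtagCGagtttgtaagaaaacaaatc
CDKN2C: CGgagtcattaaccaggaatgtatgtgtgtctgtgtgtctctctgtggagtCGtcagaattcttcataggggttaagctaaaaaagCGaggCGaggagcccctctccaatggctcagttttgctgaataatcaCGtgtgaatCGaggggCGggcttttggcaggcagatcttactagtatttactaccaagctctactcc

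Over the whole windows, *CDKN2D* had 36 CpG sites, a number that 12.7% of the 35116 promoters in the table reach, and the 3 windows of *CDKN2C* had 8, 37, and 11, beside a median of 14. The E2F-like letters TTTNNCGC, searched on both strands, were found in the windows of *CDKN2D* and *CDKN2B-AS1*, 2 of 10, and in 6.89% of all promoters. A match describes the letters only. The middle *CDKN2C* window is the richest in CpG but lies in an annotated exon and is not printed. The nearest measured genes on each side moved less than the INK4 genes did. *KRI1*, 0.429 kb from *CDKN2D*, had a ratio of 1.40 (1.31 to 1.499), and *AP1M2*, 3.61 kb away on the other side, 1.07 (1.01 to 1.12). *FAF1*, 0.478 kb from *CDKN2C*, had a ratio of 1.09 (1.03 to 1.15), and *RNF11*, 262 kb away, 1.02 (0.942 to 1.10). At both loci the large ratio was thus measured for the inhibitor gene and not for its neighbors.

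At 9p21, *CDKN2A* was the most abundant inhibitor of the family in either library. It had 5860 UMIs in mock-treated cells (117 CPM, 114 to 120.5) and 4871 UMIs in DAC-treated cells (82.5 CPM, 80.2 to 84.8). The ratio was 0.703 (0.676 to 0.730), or 1.42-fold lower, which is inside the 1.5-fold limit on this scale. Cells with a UMI made up 70.2% (68.0 to 72.3%) before and 61.6% (59.3 to 63.9%) after DAC, and the highest cell held 35 and 25 UMIs. UMIs of *CDKN2A* were therefore found in most mock-treated cells, and its summed level was lower after DAC. In cells under 2000 UMIs it stood at 116 CPM (66.4 to 189) in mock- and 70.9 CPM (42.0 to 112) in DAC-treated cells. In cells with 2000 to 10000 UMIs the direction turned, at 33.3 CPM (24.7 to 43.9) and 47.8 CPM (34.7 to 64.1), with intervals that overlap. The part of free RNA in its share of cells was not tested. Counts at the 3′ end do not separate the p16INK4a transcript from the ARF transcript, or the alleles from each other, so a change in the mix of either could not be seen.

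*CDKN2B* encodes p15INK4b, an inhibitor induced by TGF-β. It had 789 UMIs in mock-treated cells (15.8 CPM, 14.7 to 17.0) and 666 UMIs in DAC-treated cells (11.3 CPM, 10.4 to 12.2). The ratio was 0.714 (0.643 to 0.792), close to that of *CDKN2A*, but the share of cells with a UMI was 23.9% in mock- and 23.8% in DAC-treated cells. Cells with at least 3 UMIs went from 85 to 57. The direction depended on how cells were weighted, since the mean of per-cell CPM gave a log2 ratio of 0.18 in place of −0.49.

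Start regions of these 9p21 inhibitors are shown for comparison with those above, with CpG sites again in capitals. The region before the p16INK4a start is chr9:21974867-21975066 with 17 CpG sites, that before the ARF start chr9:21995325-21995524 with 23, and that of *CDKN2B* chr9:22009306-22009505 with 17, all on the minus strand.
CDKN2A p16 start: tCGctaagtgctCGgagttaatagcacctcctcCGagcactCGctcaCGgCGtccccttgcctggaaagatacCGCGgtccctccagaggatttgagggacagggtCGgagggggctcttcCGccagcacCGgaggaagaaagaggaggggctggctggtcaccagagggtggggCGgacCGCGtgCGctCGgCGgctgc
CDKN2A ARF start: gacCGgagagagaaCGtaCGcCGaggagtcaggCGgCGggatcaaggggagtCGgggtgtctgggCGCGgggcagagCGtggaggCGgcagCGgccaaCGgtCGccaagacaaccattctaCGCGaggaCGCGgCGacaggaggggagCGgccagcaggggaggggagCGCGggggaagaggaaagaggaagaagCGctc
CDKN2B: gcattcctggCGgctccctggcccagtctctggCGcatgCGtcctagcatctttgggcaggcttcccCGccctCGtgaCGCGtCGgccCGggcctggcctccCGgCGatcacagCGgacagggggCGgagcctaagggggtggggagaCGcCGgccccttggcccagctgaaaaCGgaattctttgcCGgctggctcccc

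The whole windows held 26 and 28 CpG sites for *CDKN2A*, 25 for *CDKN2B*, 36 for *CDKN2B-AS1*, 29 for *CDKN1B*, and 15 for *MTAP*. By the richest window of each gene, the 3 genes higher by 1.5-fold had 36 or 37 sites and the other 4 had 15 to 29, a description of 7 genes for which the start in use in these cells is not known. This split counts *CDKN2B-AS1* as higher, a call lost with median-of-ratios scaling, and takes the exonic window of *CDKN2C* over those with 8 and 11 sites.

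*MTAP*, the methylthioadenosine phosphorylase of the methionine salvage pathway, is often deleted together with *CDKN2A* in cancers. It had 7108 UMIs in mock-treated cells (142 CPM, 139 to 146) and 4948 UMIs in DAC-treated cells (83.8 CPM, 81.5 to 86.2). The ratio was 0.588 (0.567 to 0.610), or 1.70-fold lower, below the ratios of 89.8% of the tested genes. Cells with a UMI fell from 77.8% to 66.5%, and cells with at least 3 UMIs from 976 to 695. *MTAP* was the gene with the greatest decrease of the 7 on this scale, and its transcripts show that 9p21 is retained in this line, at least at *MTAP*.

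*CDKN2B-AS1*, also called ANRIL, is a noncoding RNA that has been linked to polycomb repression of the locus. It had 38 UMIs in mock-treated cells (0.761 CPM, 0.539 to 1.05) and 68 UMIs in DAC-treated cells (1.15 CPM, 0.894 to 1.46). The ratio of 1.51 had an interval from 1.00 to 2.31, and no cell had more than 2 UMIs. At this depth the size of the difference was poorly fixed, and the sign of the log2 ratio turned to −0.21 with the mean of per-cell CPM. The library type keeps the strand, so these UMIs are distinct from those of the inhibitor genes on the opposite strand, but reads that fit more than 1 gene on a strand are dropped by Cell Ranger. *AL359922.1*, a noncoding gene on the same strand as *MTAP* and *CDKN2B-AS1* that overlaps both, had 0 UMIs in both libraries.

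Summed over the 4 genes at 9p21, UMIs went from 13795 to 10553, a ratio of 0.647 (0.630 to 0.663). The nearest measured genes around them were *KLHL9*, 467 kb from *MTAP*, with a ratio of 1.07 (0.965 to 1.18), and *CAAP1*, 4713 kb from *CDKN2B-AS1*, with one of 0.779 (0.720 to 0.843). Of 22 other genes matched from a list of 9p21 neighbors, most of them interferon genes, 13 had 0 UMIs in both libraries and only *KLHL9* and *FOCAD* (1.02, 0.899 to 1.17) reached 100 UMIs. Below that limit, *HACD4* rose from 3 to 56 UMIs and *IFNE* from 19 to 75 UMIs. *DMRTA1* (18 and 14 UMIs) and *LINC01239* (8 and 3 UMIs) were lower, with intervals that include 1. The lower counts of *CDKN2A*, *CDKN2B*, and *MTAP* were therefore not shared by *KLHL9*, *FOCAD*, *HACD4*, and *IFNE*. *CAAP1* was also lower, with an interval that overlaps those of *CDKN2A* and *CDKN2B*.

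*CDKN1B*, the p27 gene, was lower in summed UMIs by less than 1.5-fold. It had 1014 UMIs in mock-treated cells (20.3 CPM, 19.1 to 21.6) and 960 UMIs in DAC-treated cells (16.3 CPM, 15.2 to 17.3), a ratio of 0.800 (0.732 to 0.875). Cells with a UMI made up 36.01% and 32.6%, whereas cells with at least 3 UMIs numbered 75 and 88. Since p27 is set mainly by degradation, this level of mRNA does not give the level of the protein. *CREBL2*, 40.4 kb from it, had a ratio of 1.11 (0.973 to 1.26), and *APOLD1*, 3.55 kb away, 1.71 (1.36 to 2.17).

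Because the INK4 proteins share their targets, the make-up of the family was computed from the UMIs of its 4 genes, which were not divided by gene length since each molecule is tagged at its 3′ end. Their sum was 7354 UMIs in mock-treated and 9781 UMIs in DAC-treated cells, a ratio of 1.12 (1.09 to 1.16), below the all-gene median ratio of 1.18, so that its direction turns with median-of-ratios scaling. The share of *CDKN2A* in this sum fell from 79.7% (78.7 to 80.6%) to 49.8% (48.8 to 50.8%), and that of *CDKN2B* from 10.7% to 6.81%. The share of *CDKN2D* rose from 8.66% (8.03 to 9.33%) to 38.3% (37.3 to 39.3%), and that of *CDKN2C* from 0.925% to 5.09%. UMIs of the 4 INK4 genes thus came mainly from *CDKN2A* in mock-treated cells and from *CDKN2A* and *CDKN2D* together in DAC-treated cells. The change of their sum was close to that of the median gene. ARF transcripts are counted with *CDKN2A*, so the share of p16INK4a itself is not known.

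**Figure D3:**
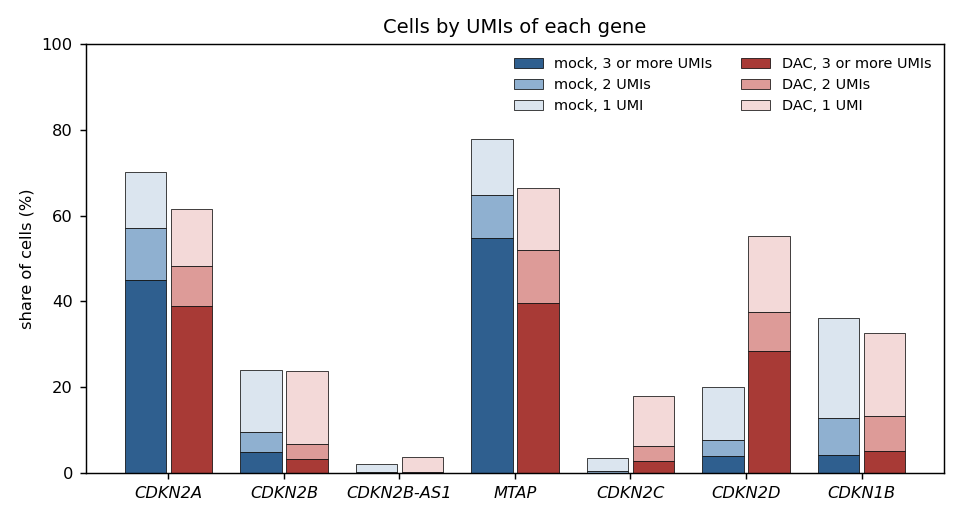
Share of cells (%) with 1, 2, and 3 or more UMIs of each gene, stacked, in the mock-treated (blue) and DAC-treated (red) library. The whole bar of *CDKN2D* rises from 20.1% to 55.2% of cells, that of *CDKN2C* from 3.42% to 17.9%, and that of *MTAP* falls from 77.8% to 66.5%.

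Shares of cells depend on depth, so cells were also thinned to 10000 UMIs each, which left 1388 mock- and 1293 DAC-treated cells. *CDKN2D* was then detected in 10.9% (9.29 to 12.6%) of mock-treated and 38.1% (35.5 to 40.8%) of DAC-treated cells, and *CDKN2C* in 1.22% and 6.81%. *CDKN2A* was detected in 59.9% (57.2 to 62.5%) and 47.2% (44.4 to 49.9%), and *MTAP* in 71.0% and 50.2%. These differences were thus also present at equal depth, but their size depended on depth and on the cells used. For *CDKN2A* and *MTAP* they were −8.60 and −11.4 percentage points over all cells, −12.7 and −20.8 after thinning, and −2.90 and −6.22 in unthinned cells with at least 10000 UMIs and at most 50% mitochondrial UMIs. For *CDKN2C* and *CDKN2D* they were 14.5 and 35.1, 5.58 and 27.2, and 22.5 and 52.7 in the same order. No other cell type was present from which free RNA could be measured, so pools of cells with few UMIs were compared instead. In cells under 2000 UMIs, *CDKN2D* stood at 29.0 CPM (7.91 to 74.3, from 4 UMIs) in mock- and 55.1 CPM (30.1 to 92.5, from 14 UMIs) in DAC-treated cells. In cells with 2000 to 10000 UMIs it stood at 3.99 CPM (1.46 to 8.69) and 38.0 CPM (26.5 to 52.8). The median mitochondrial shares of the latter pools were 69.6% and 37.8%. The part of free RNA in the shares of cells was not tested.

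Variation between cells was described in a pair of ways. If each cell had held the same share of *CDKN2D*, 539 DAC-treated cells would have lacked it, and 784 did, a ratio of 1.45 against 1.11 in mock-treated cells. For *CDKN2A*, the ratio of observed to even cells without a UMI was 1.61 in mock- and 1.43 in DAC-treated cells, and for *MTAP* 1.38 and 1.26. *CDKN2D* was the gene of these 3 with the higher ratio after DAC, a ratio that also grows with the level of a gene. The squared coefficient of variation beyond Poisson sampling, computed on thinned cells, had a median over 9062 genes of 0.178 in mock- and 0.352 in DAC-treated cells. For *MTAP* it went from 0.173 to 0.431, near the median gene in both libraries, and for *CDKN2A* from 0.502 to 0.490. For *CDKN2D* it was 1.00 and 1.38, and for *CDKN1B* 0.443 and 0.999. It was 2.76 and 1.72 for *CDKN2B*. The value of *CDKN2A* was thus about the same after DAC as before. It was higher after DAC for *MTAP*, *CDKN2D*, and *CDKN1B*, as for the median gene, and lower for *CDKN2B*. These values have no intervals and rest on few UMIs for *CDKN2B*, *CDKN2D*, and *CDKN1B*, so they are a description only.

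Since transcripts of several inhibitors follow the cell cycle, cells with at least 10000 UMIs and at most 50% mitochondrial UMIs were grouped by the share of UMIs from a list of 52 G2/M genes. This list rose from 3049 to 5884 CPM in all cells, with 40 genes at least 1.5-fold higher and 0 lower, and a list of 42 S-phase genes rose from 1226 to 2597 CPM, with 34 higher and 0 lower, beside 31.0% and 14.2% of all genes. With common limits of 0.2% and 0.6% of UMIs, chosen after the data were seen, 73.7% of mock-treated cells but 26.96% of DAC-treated cells fell in the low range, and 15.1% and 48.0% in the high range. The score is a share of UMIs and not a phase, and the part of free RNA in it was not tested. Since the libraries differed so much in this score, each gene was compared within a range.

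*CDKN2D* followed the score in both libraries and was higher after DAC in each range. In the low, middle, and high range it stood at 4.56, 21.8, and 38.1 CPM in mock-treated cells and at 34.0, 45.8, and 94.4 CPM in DAC-treated cells. The ratio was 7.46 (6.18 to 9.05) in the low range, 2.10 (1.74 to 2.54) in the middle range, and 2.48 (2.21 to 2.78) in the high range. DAC-treated cells with few G2/M transcripts thus held nearly as much *CDKN2D* as mock-treated cells with many. *CDKN2C* had ratios of 4.14 (1.95 to 9.24), 1.74 (1.03 to 3.11), and 3.62 (2.57 to 5.25) in the same ranges. With ranges set by S-phase genes, at limits of 0.1% and 0.3%, the ratios of *CDKN2D* were 5.48 (4.56 to 6.60), 3.05 (2.68 to 3.49), and 2.77 (2.37 to 3.25). Those of *CDKN2C* were 2.41 (0.963 to 5.96, from 12 and 11 UMIs), 3.74 (2.53 to 5.71), and 3.07 (2.03 to 4.88). *CDKN2D* was therefore higher after DAC in each range of both lists, and *CDKN2C* in each but the low S-phase range, where a difference was not detectable at this depth. Scores still differed inside the low G2/M range, with a median of 0.0785% in mock- and 0.119% in DAC-treated cells.

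*CDKN2A* differed less over the G2/M score after DAC, although less clearly so after thinning. In mock-treated cells divided into equal groups by the G2/M list, it rose from 97.9 CPM in the lowest to 159 CPM in the highest group, a ratio of 1.63 (1.52 to 1.73). In DAC-treated cells it stood at 85.2 and 89.2 CPM, a ratio of 1.05 (0.975 to 1.12). After thinning, the ratios were 1.46 (1.29 to 1.64) in mock- and 1.18 (1.00 to 1.38) in DAC-treated cells, with intervals that overlap. By the S-phase list they were 1.38 (1.29 to 1.47) and 1.13 (1.05 to 1.21) without thinning, and 1.34 (1.18 to 1.51) and 1.25 (1.06 to 1.47) with it. Within the common ranges the ratio of DAC over mock was 0.817 (0.762 to 0.875), 0.610 (0.559 to 0.665), and 0.475 (0.446 to 0.506), so the decrease was greatest among cells with the most G2/M transcripts. *MTAP* was lower by a more even amount, with ratios of 0.498, 0.530, and 0.640. *CDKN1B* rose with the score in both libraries, by 1.69 (1.44 to 1.99) in mock- and 2.53 (2.11 to 3.03) in DAC-treated cells, and was lower after DAC in each G2/M range, with ratios of 0.550, 0.717, and 0.633. By S-phase ranges its ratios were 0.524 (0.423 to 0.645), 0.647 (0.553 to 0.757), and 0.909 (0.749 to 1.11), the last with no detectable difference.

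The direction turned between ranges for *CDKN2B* beyond its intervals, and for *CDKN2B-AS1* (1.82, 1.55, and 0.825) within wide intervals that include 1. In the low G2/M range it was higher after DAC, at 14.3 CPM in mock- and 19.3 CPM in DAC-treated cells, a ratio of 1.35 (1.15 to 1.57). In the middle and high range it was lower, with ratios of 0.543 (0.412 to 0.717) and 0.355 (0.289 to 0.437). In the ranges set by S-phase genes the ratios were 1.31 (1.11 to 1.53), 0.595, and 0.544, with the same turn. In DAC-treated cells *CDKN2B* was thus concentrated in cells with few cell cycle transcripts, the opposite of *CDKN2C* and *CDKN2D*. On the CPM scale the summed ratio of 0.714 joins a rise and a decrease. The all-gene median ratio over all cells, 1.18, lies inside both intervals of that rise. The median gene within the low ranges was not computed, so whether *CDKN2B* rose beyond it there is not known.

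**Figure D4:**
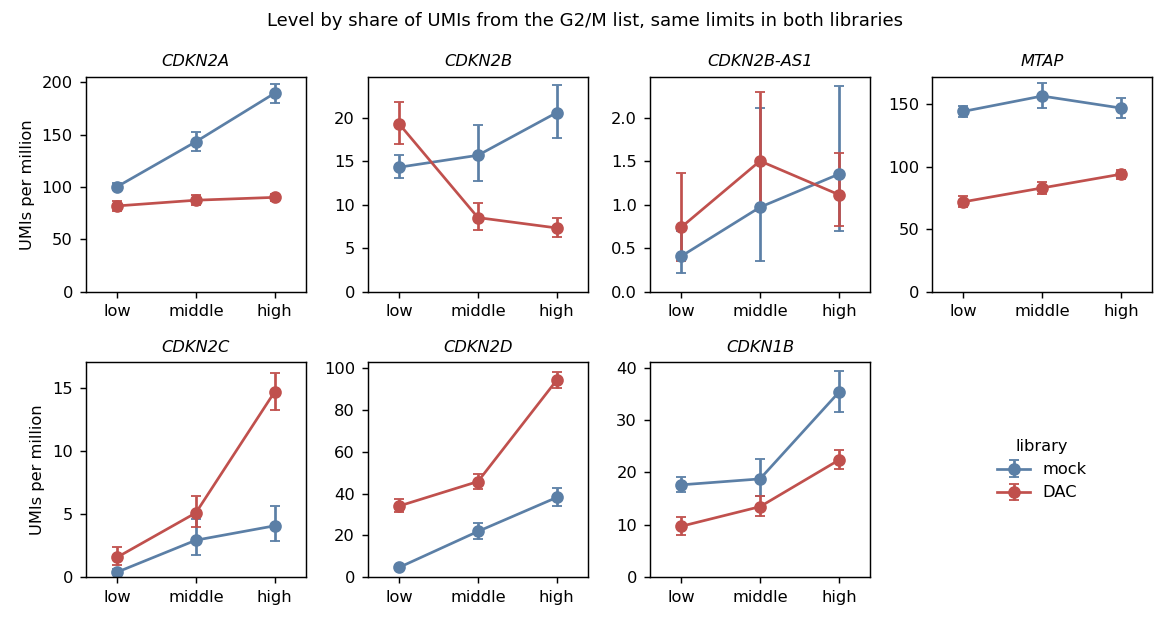
CPM of each gene in cells with a low (at most 0.2%), middle, and high (over 0.6%) share of UMIs from the G2/M list, in the mock-treated (blue) and DAC-treated (red) library, with exact 95% Poisson intervals. The lines of *CDKN2B* cross between the low and the middle range, those of *CDKN2B-AS1* have overlapping intervals, and the DAC line lies above the mock line throughout for *CDKN2C* and *CDKN2D* and below it for *CDKN2A*, *MTAP*, and *CDKN1B*.

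Whether inhibitors occurred in the same cells was examined on thinned cells. Mock-treated cells with 0, 1 or 2, and 3 or more UMIs of *CDKN2A* had *CDKN2B* at 8.80, 13.5, and 33.2 CPM. In DAC-treated cells the values were 10.7, 11.8, and 15.7 CPM, with intervals that overlap. The G2/M list rose over the same groups of mock-treated cells, from 1848 to 4166 CPM, and its part in the relation was not tested. In mock-treated cells *CDKN2A* and *CDKN2B* thus rose together, and in DAC-treated cells such a relation was not detectable at this depth. *MTAP* differed, at 131, 142, and 144 CPM over these groups in mock- and 72.6, 89.2, and 111 CPM in DAC-treated cells. Its lowest and highest DAC-treated groups had separate intervals (66.4 to 79.3 and 89.4 to 136). *CDKN2D*, on another chromosome, also rose over these groups in mock-treated cells, from 9.69 to 20.3 CPM. *CDKN2C* was found with *CDKN2D* in 50 of the 88 DAC-treated cells that had it, whereas 33.6 would be the product of both shares. Its level was 5.13, 10.2, and 22.6 CPM (3.68 to 6.95, 7.42 to 13.7, and 12.3 to 37.9) in DAC-treated cells with 0, 1 or 2, and 3 or more UMIs of *CDKN2D*, while the G2/M list rose from 4406 to 9627 CPM. Both INK4 genes outside 9p21 were therefore found in overlapping cells, those with more cell cycle transcripts.

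The genes most like *CDKN2D* across cells, among 6983 compared, were *HMGB2*, *UBE2C*, and *BIRC5*, all in the G2/M list. The smaller Pearson r of the 2 libraries was 0.311, 0.290, and 0.272, over 1388 and 1293 thinned cells that share their library. For *CDKN2A* they were *PFN1*, *DYNLL1*, and *YBX1*, with 0.241, 0.232, and 0.230, and for *CDKN2B*, *MTAP*, and *CDKN1B* no gene reached 0.15. *CDKN2C* and *CDKN2B-AS1* had too few UMIs for this comparison. These are weak correlations of sparse counts and are given as a description.

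DAC-treated cells also differ in how much of their UMIs comes from genes silent in mock-treated cells. They were therefore divided into equal groups by the share of UMIs from 4305 genes with 0 UMIs in the mock-treated library. *CDKN2D* stood at 61.7, 74.5, and 64.1 CPM from the lowest to the highest group, with a ratio of highest over lowest of 1.04 (0.956 to 1.13), and *CDKN2C* at 9.99, 9.26, and 7.58 CPM, with one of 0.759 (0.603 to 0.954). *CDKN2A* went from 94.4 to 71.2 CPM, a ratio of 0.754 (0.701 to 0.812), and *MTAP* from 94.6 to 72.8 CPM, a ratio of 0.770 (0.716 to 0.828). *CDKN2B* went from 8.36 to 11.8 CPM, a ratio of 1.41 (1.14 to 1.75). In the cells with the most transcripts of formerly silent genes, *CDKN2C*, *CDKN2A*, and *MTAP* were thus lower than in those with the fewest, *CDKN2B* was higher, and *CDKN2D* was about equal.

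Of the targets of INK4 proteins, *CDK4* had 6018 and 6115 UMIs, a ratio of 0.859 (0.829 to 0.890). *CDK6* rose from 1799 to 7770 UMIs, a ratio of 3.65 (3.47 to 3.85), *CCND1* from 23073 to 72639, a ratio of 2.66 (2.62 to 2.70), and *CCND3* from 475 to 1891, a ratio of 3.37 (3.04 to 3.73). In this list 3 of 4 tested genes were higher and 0 lower, beside 31.0% and 14.2% of all genes, with a median log2 ratio of 1.58 beside 0.24 for all genes. In sums over cells, the rise of *CDKN2C* and *CDKN2D* therefore came with a rise of *CDK6* and D-type cyclins, the partners that their proteins bind or compete with. *CCND1* was also higher after DAC in each G2/M range (3.37, 3.03, and 2.41). Among DAC-treated cells it went the other way from these inhibitors. The group highest in G2/M transcripts had 0.729 (0.716 to 0.742) of the *CCND1* level of the lowest, against 2.90 for *CDKN2D* and 7.98 for *CDKN2C*. Of 7 tested kinases and cyclins that p27 inhibits, 6 were higher and 0 lower, beside the same shares, with *CDK2* at 1.89 (1.74 to 2.06), *CCNE1* at 2.92 (2.71 to 3.15), *CCNE2* at 3.24 (2.71 to 3.89), *CCNA2* at 2.54 (2.38 to 2.70), and *CCNB1* at 2.21 (2.14 to 2.29). Lower *CDKN1B* thus stood beside higher transcripts of most of its targets, *CCNB2* being within 1.5-fold at 1.04 (0.992 to 1.09). *CCNE2* belongs also to the S-phase list and *CDK1* and *CCNB2* to the G2/M list, and the part of the cell cycle score in this group was not tested.

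Downstream of these kinases, 7 of 13 genes of the RB family and of E2F and its partners were higher and 2 lower. Of all genes, 31.0% were higher and 14.2% lower, and this list had a median log2 ratio of 0.63. *E2F8* belongs also to the S-phase list, and the part of the cell cycle score in this list was not tested. The activators *E2F2* and *E2F1* had ratios of 2.73 (2.21 to 3.40) and 2.11 (1.90 to 2.36), and *E2F7*, a repressor of the same targets, 2.16 (1.88 to 2.49). *TFDP2*, which encodes a dimer partner of E2F, was lower at 0.469 (0.443 to 0.496), and so was *E2F5*, named here after its value was seen, at 0.540 (0.478 to 0.610). *MDM2*, which encodes the ubiquitin ligase that ARF binds, rose from 1762 to 4583 UMIs, a ratio of 2.20 (2.08 to 2.32), while *CDKN2A* was lower. Of other CDK inhibitor genes, *CDKN1A*, which encodes p21, rose from 5394 to 11894 UMIs, a ratio of 1.86 (1.80 to 1.93), and *CDKN3* had a ratio of 2.03 (1.94 to 2.12). In a list of 9 genes, for p27 turnover and the transcription factors *FOXO1* and *FOXO3*, 3 were higher and 1 lower. These counts were near the 31.0% and 14.2% of all genes, with a median log2 ratio of 0.34. *SKP2*, which directs p27 to degradation, had a ratio of 1.66 (1.46 to 1.90), *SKP1* 1.57, *RBX1* 1.53, and *RNF123* 0.487 (0.430 to 0.551).

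Of 11 genes of methionine salvage, in which *MTAP* acts, of S-adenosylmethionine and polyamine synthesis, and of the PRMT5 complex, 5 were higher and 2 lower, beside 31.0% and 14.2% of all genes, with a median log2 ratio of 0.27. *APIP*, a later step of salvage, was lower at 0.581 (0.540 to 0.626) and *MAT2A*, which makes S-adenosylmethionine and is named here after its value was seen, at 0.583 (0.561 to 0.605), both close to the *MTAP* ratio of 0.588. *WDR77* (2.91, 2.71 to 3.12) and *PRMT5* (2.08, 1.97 to 2.19), whose complex is inhibited by the *MTAP* substrate, and the spermidine synthase gene *SRM* (2.08, 2.03 to 2.13) were higher. Without *PRMT5* and *WDR77*, 3 of 9 were higher and 2 lower, near the shares of all genes.

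**Figure D5:**
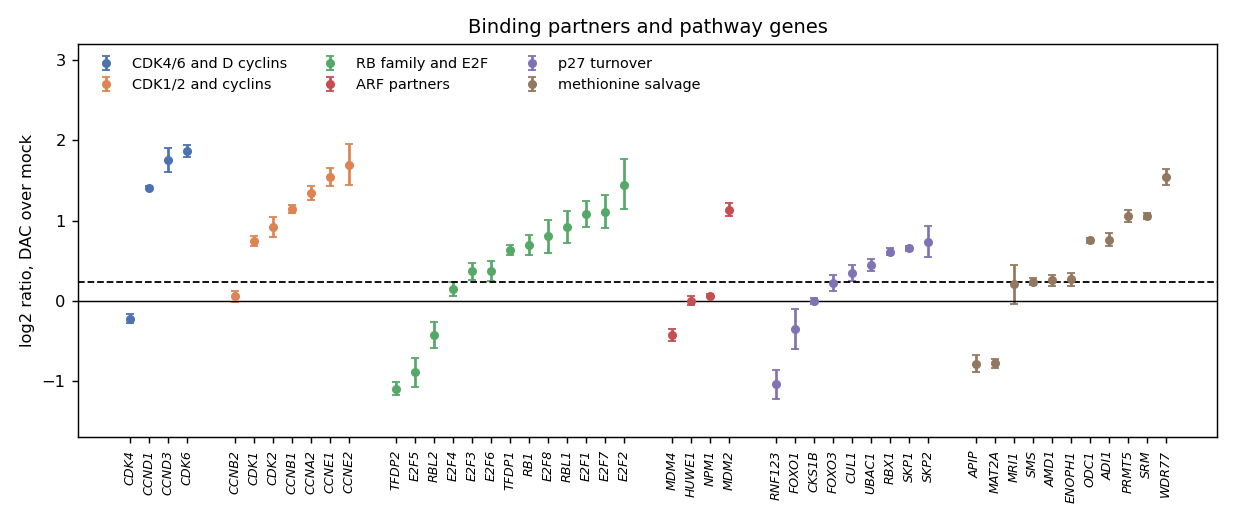
Log2 ratio of DAC over mock for tested genes of 6 lists around the inhibitors, with exact 95% intervals, a solid line at 0 and a dashed line at the all-gene median of 0.24. *CDK6* and D-type cyclins, and most kinases and cyclins that p27 inhibits, lie above the dashed line, and *CDK4*, *APIP*, and *MAT2A* lie below 0.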

How the data were processed

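UMI counts per gene and cell were taken as deposited, without normalization. The authors mapped the reads to hg38 with Cell Ranger; the annotation release is not given in the sources used here. All deposited cells were used. Genes were found by gene name, their positions were matched by Ensembl identifier, and their promoters by gene symbol. UMIs were summed over cells and scaled to the library total (CPM), using Python 3.11.15, numpy 2.4.6, scipy 1.17.1, pandas 2.3.3, and matplotlib 3.10.9. Ratios have exact conditional binomial intervals, sums exact Poisson intervals, and shares of cells exact Clopper-Pearson intervals. A gene was called higher or lower at 1.5-fold with at least 100 UMIs over both libraries, and no test was made. No paired analysis was possible because each arm had 1 library.

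Named genes were the 7 genes, at most the 4 genes with the largest change past 1.5-fold in each list, the partners *CDK4*, *CDK6*, *CCND1*, *CDK2*, *CCNE1*, *SKP2*, and *MDM2*, and up to 3 genes most like a member with r of at least 0.15; the nearest measured neighbors, *E2F5*, and *MAT2A* were added, and 1 further gene under this rule is not reported, and no count or median is given for its list. The members and lists were chosen with earlier results of these data known. Thinning drew 10000 UMIs per cell with a fixed seed and left out 395 mock- and 458 DAC-treated cells with fewer UMIs. Positions and exons came from GENCODE and sequences from RefSeq. Doublets were not called, and the 5% of cells richest in UMIs were left out as an alternative. The other alternatives were median-of-ratios scaling, totals without mitochondrial genes, the mean of per-cell CPM, filters on depth and on mitochondrial share, thinning, leaving out shared barcodes, other UMI limits, and 2-fold. Common cell cycle ranges, groups by mock-silent genes, groups by *CDKN2D*, and co-detection were chosen after seeing the data. Ratios, calls, thinning, and the coefficient of variation were tested on simulated data.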

Additional observations from a re-analysis of the deposited data

How the results depend on the processing

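Of the 8 alternatives to the log2 ratios of the 7 genes written at the start, totals without mitochondrial genes, omitting the 5% of cells richest in UMIs, leaving out shared barcodes, and keeping cells with at least 10000 UMIs and at most 50% mitochondrial UMIs changed none of the 7 beyond its interval. Over the 8, *CDKN2C* ranged from 2.21 to 2.91, *CDKN2D* from 2.09 to 2.38, *CDKN2A* from −0.73 to −0.47, *MTAP* from −0.99 to −0.67, and *CDKN1B* from −0.54 to −0.11, all with 1 sign, whereas *CDKN2B* (−0.92 to 0.18) and *CDKN2B-AS1* (−0.21 to 0.77) changed sign. Where values moved, the cause was not tested.

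Median-of-ratios scaling gave −0.73 for *CDKN2A*, −0.71 for *CDKN2B*, −0.99 for *MTAP*, 2.09 for *CDKN2D*, and −0.54 for *CDKN1B*, and 3 of the 7 genes lower by 1.5-fold. The mean of per-cell CPM gave 0.18 for *CDKN2B*, −0.21 for *CDKN2B-AS1*, −0.71 for *MTAP*, 2.21 for *CDKN2C*, and −0.11 for *CDKN1B*. Cells with at most 20% mitochondrial UMIs gave −0.57 for *CDKN2A*, −0.92 for *CDKN2B*, −0.67 for *MTAP*, and −0.12 for *CDKN1B*. Thinning to 10000 UMIs gave −0.32 for *CDKN2B*. Cells with at most 0.2% of UMIs from the G2/M list, an alternative chosen after seeing the data, gave −0.29 for *CDKN2A*, 0.43 for *CDKN2B*, −1.01 for *MTAP*, 2.05 for *CDKN2C*, 2.90 for *CDKN2D*, and −0.86 for *CDKN1B*.

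The share of cells, DAC minus mock, in percentage points, was 0.819 for *CDKN1B* at 3 UMIs or more, the opposite of −3.40 at 1 UMI or more. At 3 UMIs or more it was 0 for *CDKN2B-AS1*, −15.0 for *MTAP*, 2.86 for *CDKN2C*, and 24.6 for *CDKN2D*. In thinned cells it was −12.7 for *CDKN2A*, −20.8 for *MTAP*, 5.58 for *CDKN2C*, and 27.2 for *CDKN2D*. In cells with at least 10000 UMIs and at most 50% mitochondrial UMIs it was −2.90 for *CDKN2A*, 2.86 for *CDKN2B-AS1*, −6.22 for *MTAP*, 22.5 for *CDKN2C*, 52.7 for *CDKN2D*, and −0.0505 for *CDKN1B*.

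At 2-fold, 0 of the 7 genes were lower, and 2209 of all genes were higher and 921 lower. With every gene that had at least 1 UMI in each library, 7013 were higher and 3594 lower. With groups of cells drawn again after thinning, the log2 ratio of the highest over the lowest group by the G2/M list was 0.54 for *CDKN2A* in mock-treated cells, and 0.24 for *CDKN2A*, −0.89 for *CDKN2B*, and 1.74 for *CDKN2D* in DAC-treated cells. It was 0.13 for *MTAP* in mock-treated cells. By the S-phase list it was 0.32 for *CDKN2A* and −1.07 for *CDKN2B* in DAC-treated cells, and 19 other values of this kind stayed within their intervals.

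With 1 library per arm, the spread between libraries is unknown, and treatment and library cannot be told apart. Counts of *CDKN2B-AS1* and of *CDKN2C* before DAC were too low to fix a distribution over cells. Protein levels and methylation were not measured in these libraries, and transcripts of *CDKN2A* were not separated.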

Other observations

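Of 20 polycomb genes and other regulators of the INK4 and ARF genes, 7 were higher and 4 lower by 1.5-fold, near the 31.0% and 14.2% of all genes, with a median log2 ratio of 0.31 beside 0.24 for all genes. *TBX2*, a repressor of ARF transcription, rose from 12 to 212 UMIs, a ratio of 14.9 (8.37 to 29.4), and its relative *TBX3* from 149 to 577 UMIs, a ratio of 3.27 (2.73 to 3.95). *ETS1*, an activator of *CDKN2A*, had a ratio of 2.87 (2.38 to 3.49), and *JUNB*, another activator, 0.359 (0.346 to 0.373). Among 8 tested genes of TGF-β signaling to *CDKN2B*, 1 was higher and 1 lower, beside 31.0% and 14.2% of all genes. The receptor gene *TGFBR1* was higher at 1.73 (1.54 to 1.96), and *MYC*, a repressor of *CDKN2B*, was lower at 0.451 (0.435 to 0.467). The receptor gene *TGFBR2*, named here after its value was seen, was within 1.5-fold at 0.690 (0.632 to 0.754). Of the 3 genes of the menin complex, which promotes transcription of *CDKN2C* and *CDKN1B*, 0 were higher, and *PSIP1* was lower at 0.615 (0.596 to 0.634).

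Of 9 tested genes used as marks of senescence, an arrest in which p16INK4a takes part, 3 were higher and 2 lower, also near those shares, with a median log2 ratio of 0.43. *CXCL8*, a secreted chemokine, rose from 103 to 911 UMIs, a ratio of 7.48 (6.09 to 9.26), and *IGFBP3* had a ratio of 3.65 (2.35 to 5.89), whereas *GDF15* fell from 37578 to 15218 UMIs, a ratio of 0.342 (0.336 to 0.349). *HMGB1*, whose loss from nuclei marks senescence, was higher at 1.78 (1.75 to 1.80).

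*CDKN1A*, which encodes p21, a relative of p27, was lower in DAC-treated cells with more G2/M transcripts, unlike *CDKN2D*. In DAC-treated cells the group highest in G2/M transcripts had 0.523 (0.499 to 0.547) of the *CDKN1A* level of the lowest group, against 2.90 (2.64 to 3.18) for *CDKN2D*. In mock-treated cells the values were 0.931 (0.876 to 0.989) and 6.66 (5.06 to 8.90), but *CDKN1A* turned to 1.24 (1.09 to 1.41) after thinning and was 1.20 (1.12 to 1.28) by the S-phase list, so no such contrast was fixed there.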
